A study of Homo sapiens with 6 samples.

Results

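The mitochondrial ribosomal protein genes are the nuclear genes that encode the proteins of the mitochondrial ribosome and carry a symbol of MRPL or MRPS with a number. Members were taken by symbol from the annotation of the array's probe sets, and symbols of pseudogenes were left out (2 symbols). This gave 83 probe sets for 75 genes. A probe set annotated to 1 gene alone was found for 65 of the 75 genes, out of 14232 genes with such a probe set in the series, and the counts below refer to these 65 genes. The other 10 genes were measured only by probe sets annotated to a second gene as well, and they are given separately. Each of the 65 genes had exactly 1 probe set of its own. MRPL20 and MRPL36 were not analysed here.

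RNA was measured in HCC827 cells, an established human lung adenocarcinoma line with a mutated EGFR gene. In 3D culture the cells were grown as hanging drop spheroids embedded into Matrigel, a basement membrane gel (3 arrays), and in 2D culture they were grown without coating (3 arrays). Both cultures were of 1 cell line and the labels name no drug in either. The labels number the replicates 1 to 3 in each group and do not say that they came from separate cultures, so the p-values measure the spread between these arrays, which may be technical. Signals are given on the log2 scale, and a difference is always 3D minus 2D.

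The mitochondrial ribosome translates the few mRNAs made from mitochondrial DNA, which encode core subunits of the respiratory chain and the ATP synthase. Its rRNAs come from mitochondrial DNA, whereas all of its proteins are encoded in the nucleus, made in the cytosol and imported. The small subunit reads the mRNA, and the large subunit forms the peptide bond and holds the exit tunnel, which is bound to the inner membrane. Many of its proteins have a counterpart in the bacterial ribosome, and others occur only in mitochondria.

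The promoters of the 3 members that the comparison turns on are shown first. MRPS21 had the most negative difference and was the only member to pass the test, MRPS15 had the next most negative difference, and MRPL50 had the most positive difference. Each sequence is the 120 bases before the gene's RefSeq start in GRCh38.p14, on the gene's strand. Capitals mark the motifs found by a search of both strands. They mark the ETS motif CCGGAAG in MRPS21, read on the opposite strand, and the CCAAT box in MRPL50, also on the opposite strand. The MRPS15 window held none of the motifs searched. The positions are chr1:150293741-150293860 (plus strand) for MRPS21, chr1:36464385-36464504 (minus strand) for MRPS15 and chr9:101398619-101398738 (minus strand) for MRPL50.
MRPS21: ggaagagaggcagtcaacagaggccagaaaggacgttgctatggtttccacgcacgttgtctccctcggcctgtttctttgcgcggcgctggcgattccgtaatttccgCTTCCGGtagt
MRPS15: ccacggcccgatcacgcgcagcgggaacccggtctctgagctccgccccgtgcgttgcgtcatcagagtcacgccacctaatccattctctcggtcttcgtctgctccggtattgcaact
MRPL50: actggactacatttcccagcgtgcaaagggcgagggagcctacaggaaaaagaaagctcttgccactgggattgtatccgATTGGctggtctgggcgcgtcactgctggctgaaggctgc

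The motif AAGATGGCG, which holds the core recognised by the zinc finger protein YY1, was found in 12 members, and in 10 of them it stood just after the annotated start, with its first base 6 to 35 bases downstream. The windows of 30 bases around these 10 are shown so that the letters around the motif, which is in capitals, can be compared. In all 10 the motif ran on the strand of the gene. Its letters include ATG, and whether this is the start codon of the protein was not tested. In the other 2 members, MRPL32 and MRPL52, the motif lay before the annotated start of the gene, and these are not shown. The windows lie at chr5:44808951-44808980 (plus strand) for MRPS30, chr5:154941093-154941122 (plus) for MRPL22, chr6:30617854-30617883 (plus) for MRPS18B, chr6:42217832-42217861 (minus) for MRPS10, chr6:43687762-43687791 (minus) for MRPS18A, chr7:43869478-43869507 (minus) for MRPS24, chr9:101398575-101398604 (minus) for MRPL50, chr12:93467513-93467542 (plus) for MRPL42, chr15:88467360-88467389 (minus) for MRPL46 and chr17:75904858-75904887 (minus) for MRPL38.
MRPS30: tcgcgggcaAAGATGGCGgcggccaggtgt
MRPL22: gtagcgggagggcgaAAGATGGCGgcggca
MRPS18B: gcgtacgtcAAGATGGCGgcgtctgtatta
MRPS10: gggaccggcAAGATGGCGgcgcggacagcg
MRPS18A: aggtttttgAAGATGGCGgccctcaaggct
MRPS24: gcttggcccAAGATGGCGgcctccgtgtgc
MRPL50: atctcatcgAAGATGGCGgcgcgatctgtg
MRPL42: gattgaaacAAGATGGCGggttcgtggtga
MRPL46: ggagaacgaAAGATGGCGgcgcccgtaagg
MRPL38: gccggagggAAGATGGCGgcgccctggtgg

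The signals of each array had been normalized to 1 common distribution, with values of 1.596 to 13.59 and a median of 6.263. Over the probe sets, none of which is a replicate, the 3D arrays correlated with each other at an r (Pearson) of 0.956 to 0.974, the 2D arrays at 0.980 to 0.987, and arrays of different groups at 0.943 to 0.975. 3D replicate 2 stood apart from the other arrays and had the lowest weight, 0.314, when limma estimated a weight for each array. Ranges over the leaving out of single arrays, this one included, are given below for medians and for many of the genes.

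The question was whether the genes of the mitochondrial ribosome differ in expression between 3D and 2D culture. As a group they were close to level. The median difference of the 65 members was 0.062, beside 0.071 for all genes with a probe set of their own, and 36 members lay above 0 and 29 below. The middle 50% of members lay between -0.23 and 0.20, beside -0.15 and 0.25 for all genes. A difference below 0.5 in either direction was found for 54 of the 65 members, and 2 exceeded 1, both of them lower in 3D. Without single arrays the median lay between -0.0015 and 0.083.

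Each probe set was tested with limma (2-sided), and its p was adjusted for all 22011 probe sets after Benjamini and Hochberg. A gene passed at an adjusted p below 0.05. Of the 65 members, 1 was lower in 3D (MRPS21), 0 were higher and 64 did not pass, while 0.236% of all probe sets passed as lower and 0.145% as higher. At an unadjusted p below 0.05, 6 members were lower (MRPS21, MRPS15, MRPL41, MRPS18B, MRPL24 and MRPL37) against a background of 7.94% of all probe sets. At the same limit 3 were higher (MRPL50, MRPL34 and MRPL54) against a background of 7.17%. All 3D arrays lay below all 2D arrays for 7 members (background 10%) and above them for 7 members (background 12.7%). For the members this was 10.8% in each direction, near the background, which is over all probe sets. Of the 14232 genes with a probe set of their own, 1388 lay below and 2036 above in this way. The 95% interval of the difference lay within 1 on the log2 scale in either direction for 51 members and reached that size for 14, so a change of this size was not excluded by the interval for those 14.

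**Figure D1:**
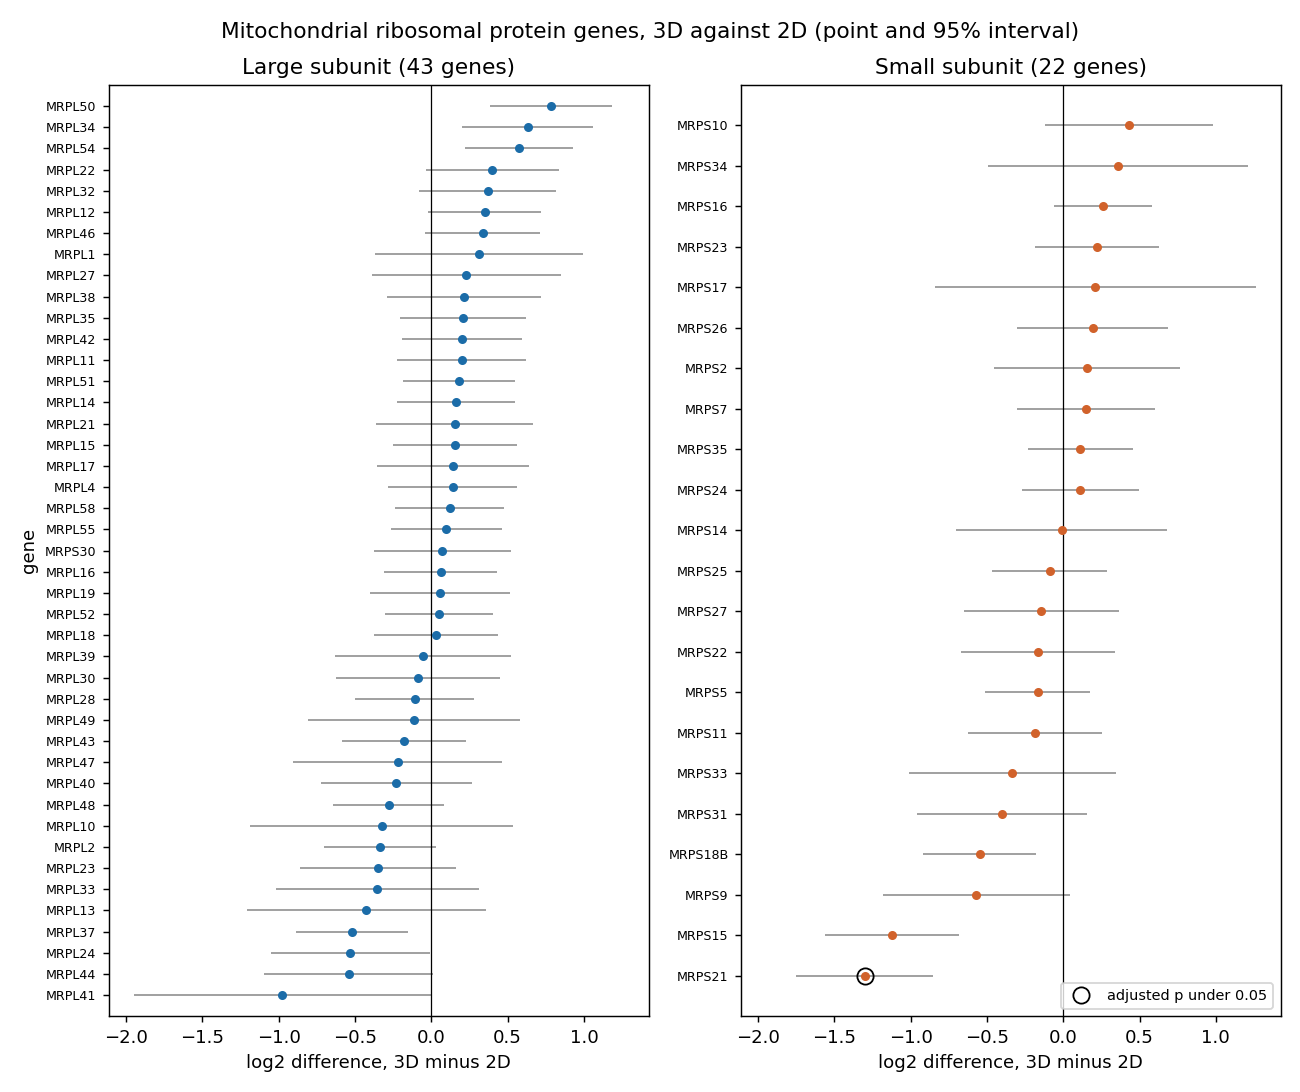
The log2 difference, 3D minus 2D, of each of the 65 genes (points) with its 95% interval from limma (bars), for the large subunit on the left and the small subunit on the right. MRPS21, at the bottom of the small subunit, is the only gene ringed as having an adjusted p under 0.05, and most other intervals include 0.

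The small subunit held both of the members with the most negative differences. MRPS21, the counterpart of the bacterial small subunit protein S21, had signals of 6.24, 5.94 and 6.48 in 3D replicates 1 to 3, against 7.72, 7.52 and 7.32 in 2D replicates 1 to 3. The 3D arrays all lay below the 2D arrays, with the highest 3D signal well under the lowest 2D signal. The means were 6.22 ± 0.27 in 3D and 7.52 ± 0.20 in 2D (SD, n = 3 each), a difference of -1.30 (SE 0.19, limma adjusted p = 0.0477), that is 2.47-fold lower in 3D, with a 95% interval of -1.75 to -0.85. The call was near the threshold and was kept without 3D replicate 3 (adjusted p = 0.0455) but lost without any other single array, with adjusted p of 0.247, 0.147 and 0.165 without 2D replicates 1, 2 and 3, and of 0.124 and 0.0545 without 3D replicates 1 and 2. The call was also lost with an intensity trend in limma (0.0501) and with a replicate block (0.0615). It was kept with array weights (0.0267), with dim probe sets left out (0.0259) and with a robust prior (0.0497). The difference lay between -1.43 and -1.16 when single arrays were left out. RefSeq lists 9 pseudogenes named for MRPS21, and whether their transcripts reach this probe set was not tested.

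MRPS15, the counterpart of bacterial S15, which binds the small subunit rRNA, had signals of 8.56, 8.66 and 9.06 in 3D, against 9.97, 9.68 and 10.003 in 2D. The groups did not overlap, and the lowest 2D array lay clearly above the highest 3D array. The means were 8.76 ± 0.27 in 3D and 9.89 ± 0.18 in 2D (SD, n = 3 each), a difference of -1.12 (SE 0.19, limma adjusted p = 0.0651), with a 95% interval of -1.56 to -0.69. It did not pass the test with all arrays and all probe sets. It passed with array weights (adjusted p = 0.0239), with dim probe sets left out (0.0355) and without 3D replicate 3 (0.0463). It did not pass without any other single array (0.0837 to 0.287). Nor did it pass with an intensity trend (0.0578), a replicate block (0.061) or a robust prior (0.067). Both genes lie on chromosome 1, and RefSeq lists 2 pseudogenes named for MRPS15.

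Other members of the small subunit differed less. MRPS18B, 1 of 3 proteins of this family, had signals of 7.44, 7.57 and 7.79 in 3D, against 8.05, 8.27 and 8.13 in 2D, with every 3D array below every 2D array. Its difference was -0.55 (SE 0.16, limma adjusted p = 0.201). MRPS9, the counterpart of a protein that lies at the head of the small subunit, had signals of 7.26, 6.67 and 7.73 in 3D, against 7.80, 7.64 and 7.93 in 2D. Here 3D replicate 3 lay within the range of the 2D arrays, and the difference of -0.57 (adjusted p = 0.356) was -0.30 without 3D replicate 2. MRPS31, found only in mitochondria, had a difference of -0.40 (adjusted p = 0.453) and -0.61 without 3D replicate 2.

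On the positive side, MRPS10, the counterpart of bacterial S10, had signals of 9.41, 8.73 and 9.19 in 3D, against 8.85, 8.32 and 8.87 in 2D. The groups overlapped, since 3D replicate 2 lay below 2 of the 2D arrays, and the difference was 0.43 (SE 0.24, limma adjusted p = 0.418), or 0.62 without 3D replicate 2. MRPS34, a protein found only in mitochondria that is needed for a stable small subunit, had signals of 7.05, 8.59 and 7.45 in 3D, against 7.37, 7.54 and 7.11 in 2D. Its difference of 0.36 (adjusted p = 0.651) rested on 3D replicate 2, in whose absence it was -0.086. MRPS16, the counterpart of bacterial S16, was the only gene of the small subunit with all 3D arrays above all 2D arrays, at 9.09, 9.03 and 8.94 in 3D, against 8.78, 8.74 and 8.77 in 2D, and the difference of 0.26 did not pass (adjusted p = 0.408). MRPS17, named after its values were seen, had the widest spread of the 3D arrays in this subunit, at 9.64, 8.06 and 9.95 in 3D, against 8.86, 8.85 and 9.31 in 2D. Its difference of 0.21 (adjusted p = 0.843) became 0.79 when 3D replicate 2 was left out and -0.15 when 3D replicate 3 was.

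Over the 22 genes of the small subunit the median difference was -0.049, with 10 above 0 and 12 below, 0 called higher and 1 called lower. It lay between -0.16 and -0.0025 without single arrays. The 12 genes classed here with a bacterial counterpart had a median of 0.050 (-0.088 to 0.10 without single arrays). The 10 classed as found only in mitochondria had a median of -0.115 (-0.21 to 0.0068), so that both signs turned with the arrays used. MRPS18B (-0.55) was counted with the 10, and placing it with the 12 was not tried. With the rows shared with other genes counted as well, the small subunit median was 0.050, so its sign depended on this choice.

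In the large subunit 0 of 43 genes passed limma's test in either direction. At an unadjusted p below 0.05, 3 were higher (background 7.17%) and 3 lower (background 7.94%). The median difference was 0.071, with 26 genes above 0 and 17 below, and leaving out single arrays gave 0.049 to 0.097. The 26 genes classed here with a bacterial counterpart had a median of 0.119 (0.059 to 0.13 without single arrays). The 17 classed as found only in mitochondria had a median of 0.052 (-0.0035 to 0.089). MRPL55 (0.099) was counted with the 26, and its class was not tested. MRPS30 is counted here since its protein sits in the large subunit despite its symbol. The difference between the subunits was not tested.

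MRPL50, a protein found only in mitochondria, had the most positive difference of all members. Its signals were 8.82, 8.85 and 8.55 in 3D, against 8.18, 7.79 and 7.89 in 2D, so that all 3D arrays lay above all 2D arrays. The means were 8.74 ± 0.16 in 3D and 7.95 ± 0.20 in 2D (SD, n = 3 each), a difference of 0.78 (SE 0.17, 95% interval 0.38 to 1.19). Its adjusted p of 0.115 by limma missed the threshold. Leaving out single arrays gave differences of 0.70 to 0.90 and adjusted p of 0.0968 to 0.422.

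MRPL34 and MRPL54 came next. MRPL34, the counterpart of a small rRNA-binding protein of bacteria, had signals of 6.73, 7.08 and 6.73 in 3D, against 6.41, 6.28 and 5.96 in 2D, a difference of 0.63 (SE 0.19, limma adjusted p = 0.202). MRPL54, found only in mitochondria, had signals of 7.47, 7.61 and 7.49 in 3D, against 6.93, 6.80 and 7.12 in 2D, a difference of 0.58 (SE 0.15, adjusted p = 0.171). Neither gene's groups overlapped, and the differences were 0.51 and 0.53 without 3D replicate 2.

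Smaller positive values were found for MRPL32 and MRPL1. MRPL32, which is cut by the m-AAA protease before it enters the ribosome, had signals of 7.999, 7.57 and 7.88 in 3D, against 7.15, 7.59 and 7.59 in 2D, with a difference of 0.37 that did not pass. 3D replicate 2 lay inside the range of the 2D arrays. MRPL1, the counterpart of the bacterial L1 stalk protein, had a difference of 0.31 (adjusted p = 0.618) and overlapping groups. Its difference ran from 0.086 (without 3D replicate 1) to 0.60 (without 3D replicate 2).

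MRPL41 had the most negative difference of the large subunit. It and MRPL37, also among the 10 most negative members, are found only in mitochondria. MRPL41 had signals of 4.78, 5.56 and 6.57 in 3D, against 6.88, 6.23 and 6.73 in 2D. The 3D arrays were spread widely, with 3D replicate 3 inside the 2D range, and the means were 5.64 ± 0.90 in 3D and 6.61 ± 0.34 in 2D (SD, n = 3 each). The difference of -0.98 (SE 0.42, limma adjusted p = 0.329) lay between -1.44 and -0.55 without single arrays. MRPL37 had signals of 8.37, 8.76 and 8.58 in 3D, against 9.04, 9.14 and 9.08 in 2D, with all 3D arrays below the 2D arrays and 2D arrays that lay close together. Its difference was -0.52 (SE 0.16, adjusted p = 0.215). MRPL13, the counterpart of bacterial L13, had a difference of -0.43 (adjusted p = 0.559) that ran from -0.76 (without 2D replicate 2) to -0.16 (without 2D replicate 1). MRPL2, the counterpart of a protein near the peptidyl transferase centre, had a difference of -0.33 (adjusted p = 0.363) with groups that did not overlap.

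**Figure D2:**
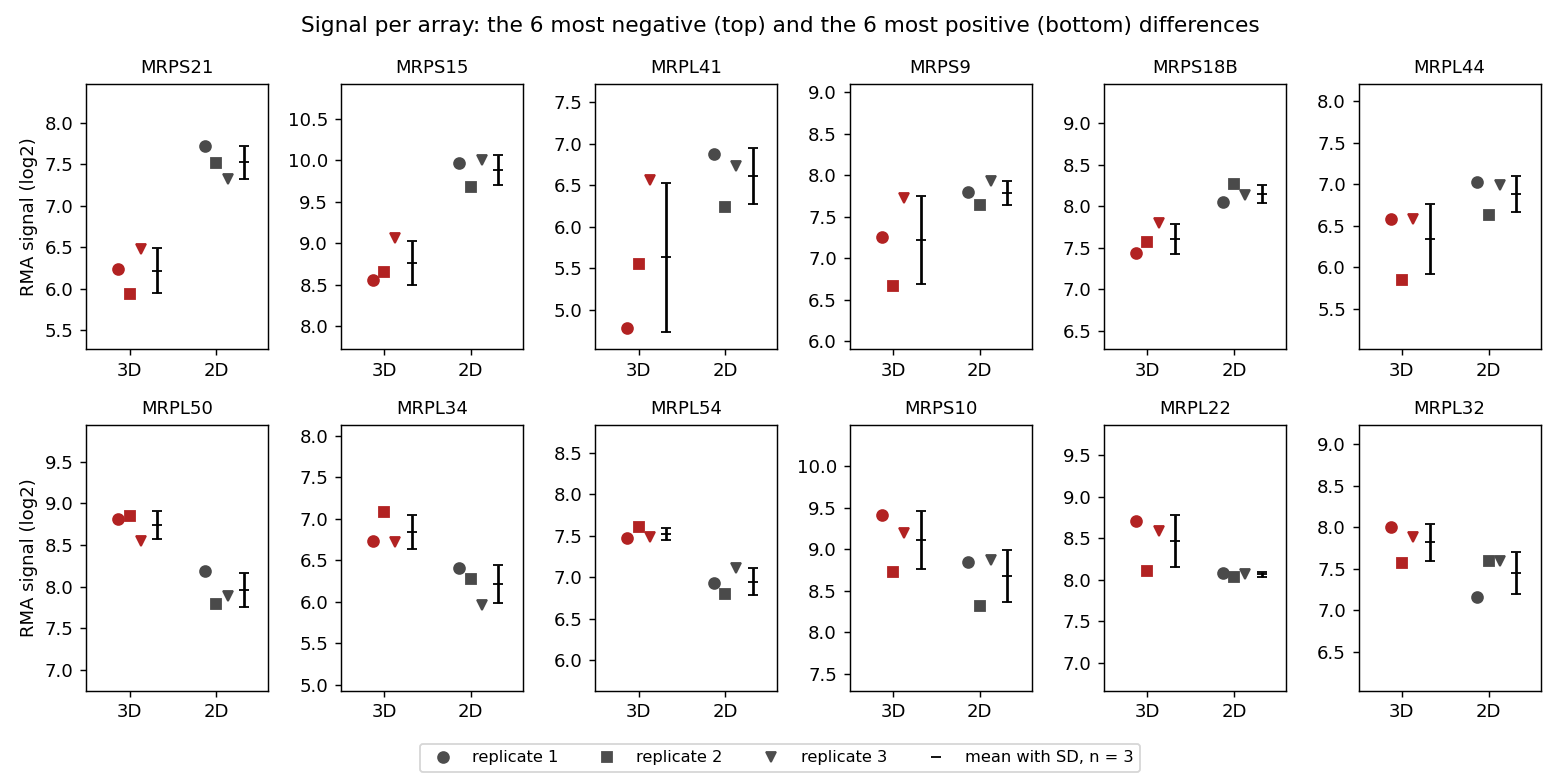
RMA signal on the log2 scale in each of the 3D (left, red) and 2D (right, grey) arrays for the 6 genes with the most negative difference (top) and the 6 with the most positive (bottom), with replicates by symbol and mean with SD (n = 3) beside them. For MRPS21, MRPS15, MRPS18B and MRPL44 all 3D arrays lie below all 2D arrays and for MRPL50, MRPL34, MRPL54 and MRPL22 all lie above, while the 3D arrays of MRPL41 span 4.78 to 6.57.

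By place in the large subunit, the genes assigned here to the exit tunnel and the membrane anchor showed values on both sides of 0. MRPL24 lies at the mouth of the tunnel. It had signals of 7.62, 6.79 and 7.16 in 3D, against 7.66, 7.63 and 7.88 in 2D, with all 3D arrays below the 2D arrays, though 3D replicate 1 lay only just under the lowest of them. The difference was -0.53 (SE 0.22, limma adjusted p = 0.324). MRPL44, a protein with a ribonuclease III-like fold, had signals of 6.58, 5.85 and 6.58 in 3D, against 7.03, 6.63 and 6.99 in 2D, a difference of -0.54 (SE 0.24, adjusted p = 0.339), and its groups did not overlap either. Without 3D replicate 2 the differences of MRPL24 and MRPL44 were -0.33 and -0.30.

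MRPL23, also at the tunnel exit, had signals of 6.83, 6.44 and 5.99 in 3D, against 6.74, 6.82 and 6.75 in 2D, a difference of -0.35 (adjusted p = 0.474). MRPL22, which lines the tunnel, ran the other way with signals of 8.70, 8.10 and 8.58 in 3D, against 8.09, 8.03 and 8.07 in 2D. All of its 3D arrays lay above the 2D arrays, 3D replicate 2 only just, and the difference was 0.40 (SE 0.19, adjusted p = 0.359). The median of these 4 genes was -0.44 (-0.61 to -0.31 without single arrays). The assignment was not complete, so this median holds for these 4 genes only. MRPL4, MRPL17 and MRPL47 were given no place and are not in it. MRPL4 and MRPL17 lay above 0 and MRPL47 below, and the sign of each turned without 3D replicate 2. MRPL45, which fixes the ribosome to the inner membrane, was measured only by a probe set shared with the pseudogene MRPL45P2, with a difference of 0.044 (-0.089 without 3D replicate 2).

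The stalk recruits translation factors to the ribosome. MRPL12, a stalk protein that also binds the mitochondrial RNA polymerase, had signals of 7.89, 7.96 and 7.60 in 3D, against 7.44, 7.56 and 7.39 in 2D. The groups did not overlap, by a narrow margin, and the difference was 0.35 (SE 0.16, limma adjusted p = 0.352). MRPL10, which holds MRPL12 at the ribosome, had signals of 7.24, 8.80 and 7.67 in 3D, against 8.12, 8.49 and 8.08 in 2D. The highest of the 6 arrays and both of the lowest were 3D arrays, and the difference of -0.33 (adjusted p = 0.686) became -0.77 when 3D replicate 2 was left out and 0.0050 when 3D replicate 1 was. MRPL11, at the stalk base, had a difference of 0.20 (adjusted p = 0.61).

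The central protuberance, at the top of the large subunit, was represented by 6 genes assigned to it here. They had a median of 0.123, with 4 above 0 and 2 below. This assignment was not complete either, and MRPL52 and MRPL58 were not counted in it. The median was -0.017 without 3D replicate 2 and up to 0.14 without another array. MRPL46 had signals of 7.98, 7.67 and 7.65 in 3D, against 7.55, 7.30 and 7.43 in 2D, without overlap, and a difference of 0.34 (adjusted p = 0.37). MRPL27, the counterpart of a protein that reaches to the peptidyl transferase centre, had a difference of 0.23 (adjusted p = 0.693), and of -0.060 once 3D replicate 2 was left out. The values were 0.21 for MRPL38 (0.026 to 0.40 without single arrays), 0.033 for MRPL18 (-0.091 to 0.11), -0.23 for MRPL40 (-0.40 to -0.070) and -0.28 for MRPL48 (-0.37 to -0.22). MRPL58, which releases peptides from stalled ribosomes, had a difference of 0.12 (adjusted p = 0.723).

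The members varied more between the 3D arrays than between the 2D arrays. The median SD was 0.266 in 3D and 0.156 in 2D, beside 0.240 in 3D and 0.152 in 2D for all genes. 3D replicate 2 was the highest or the lowest of the 3D arrays for 52 of the 65 members (80.0%), and for 77.8% of all genes. It was the lowest for 26 and the highest for 26, beside 25 and 19 for 3D replicate 1 and 14 and 20 for 3D replicate 3. The sign of the difference turned for 24 members when 1 array or another was left out and was kept for 41.

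**Figure D3:**
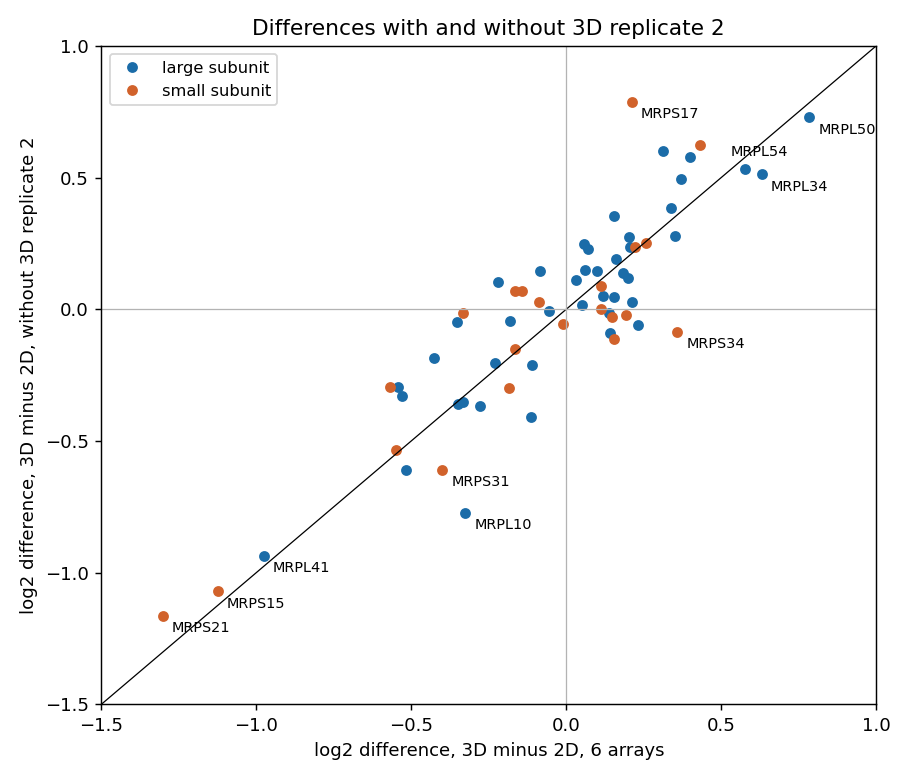
The log2 difference, 3D minus 2D, of each of the 65 genes with all 6 arrays (horizontal axis) and without 3D replicate 2 (vertical axis), in blue for the large and orange for the small subunit, with the line of equal values. MRPS21 and MRPS15 stay below -1 in both, MRPL50 stays above 0.7, and MRPL10, MRPS17 and MRPS34 lie far from the line.

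The probe sets of the members were mostly bright, at a median percentile of 76.8 of the mean signal over all probe sets (37.7 for MRPL49 to 99.4 for MRPL51). Brightness depends on the probes, so it does not order the genes by amount of RNA. The mean signal over the 65 members was 7.73 to 7.82 in the 3D arrays and 7.76 to 7.84 in the 2D arrays, so the ranges of the arrays overlapped.

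The 18 shared probe sets cannot assign a signal to either of the genes they name, and none passed the test. All 3D arrays lay below all 2D arrays for the probe set of MRPL33 and BABAM2, with 7.09, 6.71 and 7.77 in 3D, against 7.95, 8.07 and 8.09 in 2D, and a difference of -0.84 (SE 0.26, limma adjusted p = 0.221). The probe set of MRPL33 alone gave -0.35, with overlapping groups, and -0.047 without 3D replicate 2. For MRPL30 the probe set shared with C2orf15 gave -0.76 (adjusted p = 0.331, 3D below 2D), that shared with LIPT1 gave 0.31 and that of MRPL30 alone gave -0.086. For MRPS7 the shared probe set gave 0.14 and its own gave 0.15.

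Among the 10 genes without a probe set of their own, MRPS12 is the counterpart of the protein that guards decoding. Its 2 probe sets, both shared with SARS2, gave -0.15 (adjusted p = 0.714) and 0.23 (adjusted p = 0.493), the second with all 3D arrays above the 2D arrays. The 2 probe sets of MRPL57 and SKA3 differed in sign too, at -0.21 and 0.37, though the first was 0.074 without 3D replicate 2. MRPS18C, shared with ABRAXAS1, had -0.73 (adjusted p = 0.306) and -0.19, while MRPS18A, shared with RSPH9, had 0.14 and 0.095. Without 3D replicate 2 the second of these turned for both genes, to 0.061 for MRPS18C and -0.34 for MRPS18A. The remaining shared rows gave 0.50 for MRPS28 with TPD52, 0.22 for MRPL3 with SNORA58, 0.17 for MRPS6 with SLC5A3, -0.19 for MRPL9 with TDRKH and -0.35 for MRPL53 with CCDC142.

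The other genes of mitochondrial translation were described from lists of known function, and 0 of the 58 measured passed the test in either direction by limma. At an unadjusted p below 0.05 they counted 2 higher and 8 lower, against the backgrounds of 7.17% and 7.94%. Their median difference was -0.099 (-0.18 to -0.075 without single arrays), with 17 above 0 and 41 below. Proteins of the mitochondrial ribosome with other names were measured for 3 genes. DAP3, a small subunit protein that binds GTP, had a difference of -0.41 (adjusted p = 0.391), and GADD45GIP1, of the large subunit, had -0.25 (adjusted p = 0.492).

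Of 17 measured genes for the charging of mitochondrial tRNAs (24 were listed), 15 lay below 0, beside 5750 of all 14232 genes. The median of the 17 was -0.23 (-0.30 to -0.20 without single arrays). The 17 include GATB, GATC and QRSL1, whose products act on a tRNA that is already charged. At an unadjusted p below 0.05, 5 of the 17 were lower (background 7.94%), and for 6 all 3D arrays lay below all 2D arrays (background 10%). TARS2, the mitochondrial threonine enzyme, had signals of 6.32, 6.10 and 6.10 in 3D, against 6.81, 6.85 and 6.88 in 2D. The arrays of each group lay close together and well apart from the other group, with a difference of -0.67 (SE 0.14, limma adjusted p = 0.113). GARS1, which serves both the cytosol and mitochondria, had signals of 6.47, 6.71 and 6.60 in 3D, against 7.11, 7.40 and 7.33 in 2D, a difference of -0.68 (SE 0.16, adjusted p = 0.125).

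Genes of ribosome assembly and rRNA modification had a median of -0.083 over 22 genes, 8 above 0 and 14 below, and the median ran from -0.19 to 0.045 when single arrays were left out. C1QBP, a matrix protein that binds RNA, had a difference of 0.53 (adjusted p = 0.225), and RPUSD3, of the pseudouridine synthase family, had -0.44 (adjusted p = 0.264). The translation factors had a median of -0.047 over 16 genes, with a range of -0.089 to 0.11 in the same way. SLIRP, a partner of LRPPRC in keeping mitochondrial mRNAs stable, had a difference of 0.49 (adjusted p = 0.248), and MTRFR, a release factor homologue, had -0.31 (adjusted p = 0.345).

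The genes of mitochondrial DNA transcription and upkeep had a median of 0.197 over 15 genes (0.040 to 0.28 without single arrays), 8 above 0 and 7 below. None passed by limma, and 2 were higher (background 7.17%) and 0 lower (background 7.94%) at an unadjusted p below 0.05. TFAM, which packages mitochondrial DNA and starts its transcription, had signals of 10.87, 10.73 and 10.74 in 3D, against 10.49, 10.14 and 10.32 in 2D. Its groups did not overlap, and the difference was 0.46 (SE 0.16, limma adjusted p = 0.248). PRORP, the nuclease of mitochondrial RNase P, had a difference of 0.45 (adjusted p = 0.213). Of 7 transcriptional regulators measured, 3 lay above 0 and 4 below, with PPARGC1B at 0.27 (adjusted p = 0.47) and NRF1 at -0.25 (adjusted p = 0.539).

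**Figure D4:**
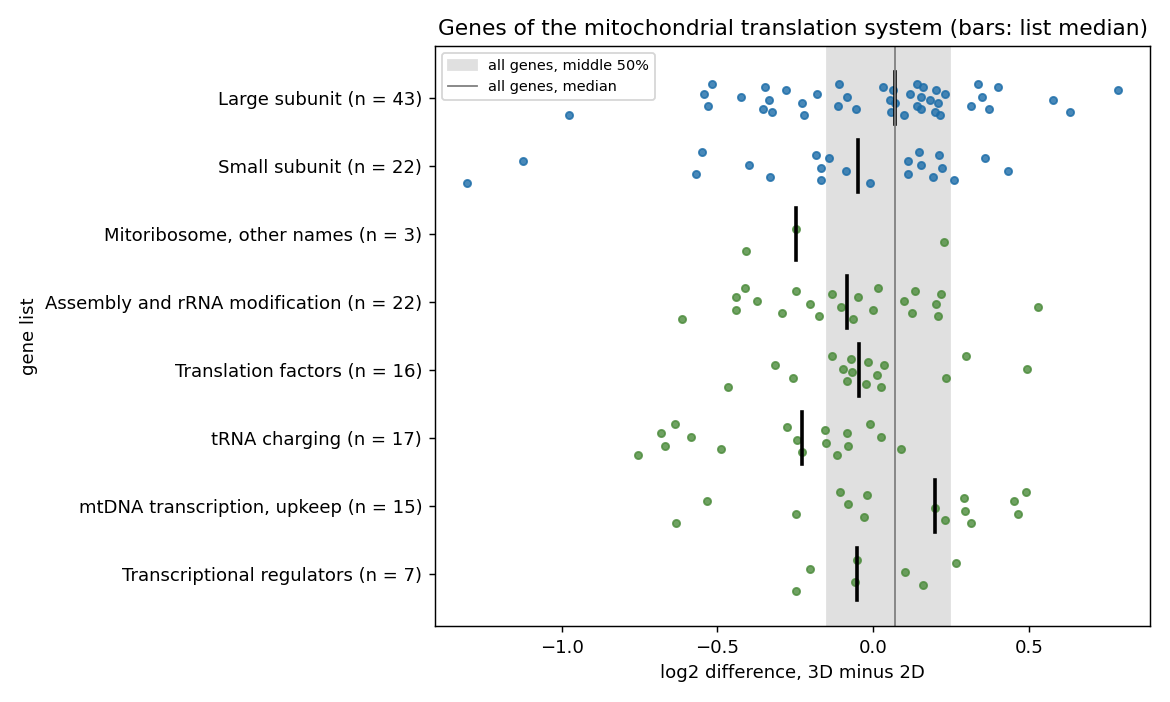
The log2 difference, 3D minus 2D, of each gene (points) in the large and small subunits (blue) and in 6 lists of other mitochondrial genes (green), with the median of each list as a bar. The grey line and band give the median and the middle 50% of all 14232 genes. The medians lie between -0.25 and 0.20, and 15 of 17 genes for tRNA charging lie below 0.

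Beside them, the proteins of the cytosolic ribosome had a median of -0.038 over 26 genes, which ran from -0.23 (without 3D replicate 2) to 0.045 when single arrays were left out, with 0 called by limma and 0 higher and 3 lower at an unadjusted p below 0.05. The subunits of the respiratory chain had a median of 0.055 over 64 genes (-0.0026 to 0.081 without single arrays), with 0 called by limma in either direction. At an unadjusted p below 0.05, 7 were higher and 2 lower, where 7.17% and 7.94% of all probe sets were.

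Markers of the cell line's epithelial type differed in 1 direction. All 10 lay below 0, with a median of -0.48 and a mean signal of 8.77 to 9.06 in the 3D arrays and 9.36 to 9.47 in the 2D arrays. All were bright (percentiles 69.9 to 95.7), and none passed the test by limma, with 5 lower at an unadjusted p below 0.05 (background 7.94%). KRT19 had a difference of -1.16 (adjusted p = 0.127) and KRT7 of -0.77 (adjusted p = 0.141). Markers of fibroblasts lay above 0 for 9 of 9 genes, with a mean signal of 5.06 to 5.27 in 3D and 4.88 to 5.06 in 2D. Markers of leukocytes lay above 0 for 7 of 8, with 5.42 to 5.80 in 3D and 5.27 to 5.35 in 2D, and those of endothelium for 4 of 6, with 5.35 to 5.49 in 3D and 5.31 to 5.37 in 2D. Of all 14232 genes, 8482 lay above 0. The median percentile was 29.1 for the fibroblast, 22.8 for the leukocyte and 29.3 for the endothelial markers, and none of them passed the test by limma. At an unadjusted p below 0.05, 0, 1 and 0 of them were higher (background 7.17%) and 0 were lower. No defining marker is at 0, since the log2 signals hold no zero, and the files give no call of signal against background. The part of these shifts in the members' values was not tested. All arrays were of HCC827 cells, and the labels name no other cell type. In bulk RNA, fewer cells with a marker and less of its RNA per cell cannot be told apart.

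Promoter windows, from 250 bases before to 50 after the start in the RefSeq table, were found for 67 of the 75 members. The ETS motif CCGGAAG was present in 28 of them (41.8%), beside 14.5% of the 11386 array genes with a window and 10.7% of all 27305 genes of the table. AAGATGGCG was present in 12 (17.9%), beside 2.97% and 1.85%. The motif GCGCANGCG, which holds most of the site of NRF1, was present in 11 (16.4%, beside 11.5% and 8.05%), the E-box CACGTG in 5 (7.46%, beside 8.99% and 7.43%) and CCAAT in 20 (29.9%, beside 36.5% and 35.7%). The array genes are those with a probe set of their own, whereas the 67 members include genes with shared probe sets only. Such genes were 5 of the 28 with ETS, 1 of the 12 with AAGATGGCG and 3 of the 11 with NRF1. They were also 2 of the 5 with the E-box and 3 of the 20 with CCAAT. Both strands were searched for all motifs, and no match of one motif in a member's window overlapped a match of another. A match describes letters and not a bound site.

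Members with and without a motif overlapped widely in their differences. The 11 genes with AAGATGGCG and a probe set of their own had a median of 0.214 and a range of -0.55 (MRPS18B) to 0.78 (MRPL50), with 10 above 0 and 1 below, beside a median of -0.011 for the 47 without it. The 23 with the ETS motif had a median of 0.052, beside 0.099 for the 35 without it, and they included MRPS21 at the negative end and MRPL54 at the positive end. The 8 with the NRF1 motif had a median of -0.209, beside 0.085 for the 50 without it, and the 17 with CCAAT had a median of -0.143, beside 0.112 for the 41 without it. The 3 with the E-box had a median of -0.112, beside 0.071 for the 55 without it. These medians describe small groups and were not tested.

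**Figure D5:**
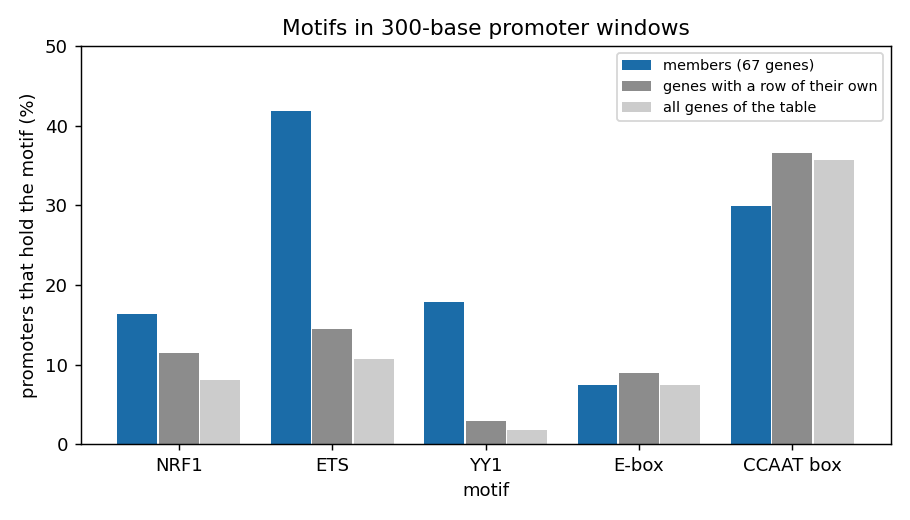
The percentage of promoter windows that hold each of 5 motifs, for the 67 members with a window (blue), the 11386 array genes with a probe set of their own and a window (dark grey) and all 27305 genes of the RefSeq table (light grey). The ETS motif is present in 41.8% of members and 14.5% of array genes, and the YY1 motif in 17.9% and 2.97%, while the CCAAT box is less frequent in members than in both backgrounds.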

How the data were processed

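Gene expression of 3D and 2D cultures of HCC827 was measured with 6 exon arrays from Affymetrix, 3 a group. According to the submitters' processing notes RMA was run in oligo, with versions that the sources used here do not give. The deposited values are log2 signals, with 22011 probe sets that stand for transcript clusters. RMA corrects background and normalizes by quantiles, which hides any shift common to all genes. The values were used as deposited. The paper's methods name limma and the adjustment. The model was a linear fit of each probe set by limma 3.58.1 (R 4.3.3), with Benjamini-Hochberg adjustment, and the script was tested on simulated data. Arrays have no read depth, and their number limits the precision.

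The members and lists were chosen with earlier results of these data known. Subunits, bacterial counterparts and the other lists come from general knowledge of the mitochondrial ribosome. The genes to name were members past the threshold, the 10 with the most positive and the 10 with the most negative difference, members with an assigned site, non-overlapping members by count, and for other lists the 2 genes of lowest p. Genes with several symbols on a probe set were kept apart. Promoters come from RefSeq (GRCh38.p14) and were matched by symbol. The YY1 and NRF1 motifs were shortened after a search with longer forms, which matched fewer promoters of members and of all genes, had been seen. No build is named for the annotation of the array, so its coordinates were not used. The plots were made in Python 3.11.15 with matplotlib 3.10.9. The alternatives were array weights, leaving out dim probe sets (the lowest 40 percent by mean signal), a robust prior or an intensity trend, a replicate block, leaving out each array, 1 probe set per gene, a threshold of 0.01, and other ways to form the medians.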

Additional observations from a re-analysis of the deposited data

How the results depend on the processing

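The number of members called was 1 (MRPS21). It was 2 with 1 probe set per gene, with array weights and with dim probe sets left out, and 0 with an intensity trend, with a replicate block and at a threshold of 0.01. Leaving out each array gave 0 to 2. Of all probe sets 84 were called, 185 with 1 probe set per gene (58 higher and 127 lower), 415 with array weights (132 and 283), 152 with dim probe sets left out (47 and 105) and 0 at a threshold of 0.01. Leaving out each array gave 0 to 150, with 0 without each 2D array, 7 without 3D replicate 1, 150 without 3D replicate 2 (72 higher and 78 lower) and 145 without 3D replicate 3 (23 and 122). The median of the members lay between -0.0015 and 0.083 without single arrays and was 0.010 less the median of all probe sets. The median of the small subunit lay between -0.16 and -0.0025 without single arrays, was 0.050 with shared rows counted and -0.10 less the median of all probe sets. The large subunit's median kept its sign under each alternative, and that of the other mitochondrial translation genes lay between -0.18 and -0.075 without single arrays. Of the genes with a probe set of their own whose differences are printed, 7 changed sign when single arrays were left out, with ranges of -0.086 (without 3D replicate 2) to 0.68 for MRPS34, -0.060 (3D replicate 2) to 0.42 for MRPL27, -0.27 to 0.15 (3D replicate 2) for MRPL30, -0.031 (3D replicate 2) to 0.25 for MRPS7, -0.77 to 0.0050 (3D replicate 1) for MRPL10, -0.15 (3D replicate 3) to 0.79 for MRPS17, where 3D replicate 1 also turned it (-0.00034), and -0.091 (2D replicate 2) to 0.11 for MRPL18, where 3D replicate 3 (-0.052) and array weights (-0.00070) also turned it. None of these genes passed the test under any of the alternatives, and the causes were not tested. With dim probe sets left out and with 1 probe set per gene, fewer probe sets were adjusted over. With array weights KRT19 and KRT7 passed as lower in 3D (adjusted p = 0.0406 and 0.0475). Background correction and normalization were not varied, since only processed values were used here.

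The labels give both groups replicate numbers 1 to 3. The labels do not state that same-numbered arrays belong together, so the main fit did not take the numbers to pair the arrays. Deviations of same-numbered arrays from their group means correlated at 0.0892, 0.374 and 0.223. With the replicate block 86 probe sets were called and 0 members, and the adjusted p of MRPS21 was 0.0615. Of the 6 arrays, 5 correlated best with the array of their own number, which is a hint from the data and not from the design.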
